A study of Mus musculus with 8 samples.

Results

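The transcription factor Atf4 and 9 genes of the amino acid response that it governs were examined in nuclei of the mouse ventricular-subventricular zone (V-SVZ), the neurogenic wall of the lateral ventricle. Members were taken by gene symbol and made up 10 of the 32285 genes counted: Atf4, Ddit4, Asns, Psat1, Phgdh, Shmt2, Mthfd2, Slc7a5, Slc3a2 and Slc7a11. Single nuclei RNA sequencing libraries were made at postnatal day 90 from 8 mice, 4 of them Tsc2 wt/wt and 4 Tsc2 mut/mut, 1 library each. Per the methods of the study, the mouse lines carried a Cre-dependent tdTomato reporter at ROSA26, and the mutant genotype rested on a conditional Tsc2 allele that Cre inactivates. Recombination in the study was brought about either by a Cre plasmid electroporated into neonatal pups or by tamoxifen with Nestin-Cre-ERT2, and the sources used here do not say which applied to these 8 mice. From each V-SVZ, tdTomato-positive nuclei were sorted (100000 per mouse), so both genotypes carried the reporter and had passed through the same 7 min trypsin step. Tsc2 is the brake on mTORC1, and the comparison is of transcripts in the sorted nuclei between the genotypes. Whether Tsc2 was lost in each cell type among them was not established here.

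ATF4 is translated preferentially when the initiation factor eIF2alpha is phosphorylated during amino acid shortage or stress, and mTORC1 also raises its translation, so its protein is set largely after transcription. It binds amino acid response elements near its target genes and raises enzymes that make serine, glycine and asparagine, transporters that bring amino acids in, and Ddit4, which restrains mTORC1 through the TSC complex. Transcript counts in nuclei report the messenger RNA of these genes and not ATF4 protein or activity.

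The binding letters of ATF4 can be seen in some of these promoters, and the sequences of the 2 members that held them, Asns and Slc7a11, are shown. RefSeq promoter windows (250 bases before to 50 bases after the start, GRCm38.p6) were searched on both strands for the C/EBP-ATF element TGATGNAA, whose reverse complement reads TTNCATCA. A window was found for 9 members, Slc7a5 having no entry in the table, and 2 of these 9 held the element, beside 1304 of 32851 windows of the same length (3.97%). Both are printed 5′ to 3′ on the minus strand that carries the gene, with the element in capitals. The first base of the Asns element lay at -23 from the RefSeq start (chr6:7693214-7693243). The GENCODE gene on this minus strand begins at 7693254, so by that annotation the Asns stretch lies inside the gene and not before its start. The Slc7a11 stretch (chr3:50443634-50443698) held the element forward at -66 and in reverse at -47.
Asns: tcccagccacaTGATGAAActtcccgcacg
Slc7a11: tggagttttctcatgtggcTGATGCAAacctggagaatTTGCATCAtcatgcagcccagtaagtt
Absence of a match says only that these letters are not in the window searched, and no binding was measured.

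In GENCODE M21 coordinates on GRCm38, the members are spread over the genome. Atf4 (chr15:80255184-80257541) and Ddit4 (chr10:59949669-59951834) are short genes. The enzyme genes are Asns (chr6:7675169-7693254), Psat1 (chr19:15904678-15947337), Phgdh (chr3:98313170-98339990), Shmt2 (chr10:127517123-127522444) and Mthfd2 (chr6:83305691-83325908). The transporter genes are Slc7a5 (chr8:121881150-121907694), Slc3a2 (chr19:8706882-8723369) and Slc7a11 (chr3:49892526-50443614). Shmt2 overlaps Ndufa4l2 and Slc7a11 overlaps the antisense gene Gm37854, both of which are counted separately on the opposite strand, and Phgdh has a pseudogene, Phgdh-ps1, so reads shared with these are uncertain.

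The libraries held 11182335 to 36773832 UMIs (unique molecular identifiers, counted molecules) over 60000 barcodes each. Barcodes with at least 300 genes numbered 37881, of which 34411 had 20% or more mitochondrial UMIs and are called mitochondria-rich here, while 3470 fell under 20% and are called nucleus-like. Of the kept barcode sequences, 166 occurred in more than 1 library, and 1 of these among nucleus-like barcodes. Marker genes that excluded all members placed 2960 nucleus-like barcodes in a cell type class: 889 astrocyte/NSC, 522 oligodendrocyte, 84 oligodendrocyte progenitor, 529 microglia, 283 ependymal, 459 choroid plexus, 117 inhibitory neuron or neuroblast and 73 endothelial nuclei, besides 3 mural or fibroblast nuclei and 1 excitatory neuron that were not compared. Microglia, choroid plexus and endothelial nuclei were thus also present after the tdTomato sort. The library of Tsc2 mut/mut replicate 4 stood apart, with 199 nucleus-like barcodes of which 84.9% were choroid plexus and 2.01% astrocyte/NSC, whereas the other libraries had 0.524% to 16.1% choroid plexus. Levels are given as CPM, the UMIs of a gene per 1000000 non-mitochondrial UMIs, with mean ± SD over mice. Over all kept barcodes, Tsc2 itself had 20.7 ± 1.29 CPM among wild types (n = 4) and 18.7 ± 2.69 CPM among mutants (n = 4), with an exact two-sided permutation p of 0.229. Since the libraries count transcript 3′ ends and the position of the deleted segment relative to them was not established here, this value does not check the labels.

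The 10 members were sparse in nuclei. Over all kept barcodes they gave between 179 UMIs (Shmt2) and 4259 UMIs (Phgdh), with 1249 for Atf4, 426 for Ddit4, 416 for Asns, 3587 for Psat1, 184 for Mthfd2, 779 for Slc7a5, 1910 for Slc3a2 and 3597 for Slc7a11. To ask in which cells they were expressed, UMIs were summed per mouse over the nuclei of a class and over all other gated nuclei of that mouse, and compared with edgeR's quasi-likelihood test with mouse as a block. Each fold change below is on the log2 scale with its standard error (SE), and adjusted p is Benjamini-Hochberg over every gene tested in that class. Counting intervals and floors given here cover counting error only. Free RNA in the droplets was read from the 20000 barcodes of lowest depth in each library as a background for each member.

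Over the 8 classes, 6 members passed the filter on low counts somewhere, and 28 of the 38 resulting tests were called at an adjusted p under 0.05, 9 higher and 19 lower, beside 56.2% of all tests across all genes. In endothelial nuclei 3 of 6 members tested were higher and 3 lower, where 46.5% of 6516 genes were called (15.8% higher, 30.8% lower). In choroid plexus nuclei 3 of 6 were also higher and 3 lower, where 85.9% of 7507 genes were called (32.5% higher, 53.4% lower). In astrocyte/NSC nuclei 1 of 6 was higher and 2 lower, against 63.8% of 8345 genes (26.8% higher, 37% lower). In oligodendrocytes 2 of 5 were higher and 2 lower, against 53.3% of 5573 genes (21.3% higher, 32.1% lower). In the remaining classes every call was lower. These were 2 of 4 members in oligodendrocyte progenitors (37% of genes called, 11.9% higher and 25.1% lower) and 1 of 3 in microglia (57.2%, 25% higher and 32.1% lower). They were 3 of 4 in ependymal nuclei (56.1%, 25.2% higher and 31% lower) and 3 of 4 in inhibitory neurons or neuroblasts (37.6%, 9.48% higher and 28.1% lower). Against this high background, which the share of members called fell below in astrocyte/NSC nuclei and microglia, nothing is read from the counts of calls, and the members are described one by one. In choroid plexus nuclei the median gene had a log2 fold change of -0.85, as against -0.69 with DESeq2 size factors, so changes there are read against that shift.

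**Figure D1:**
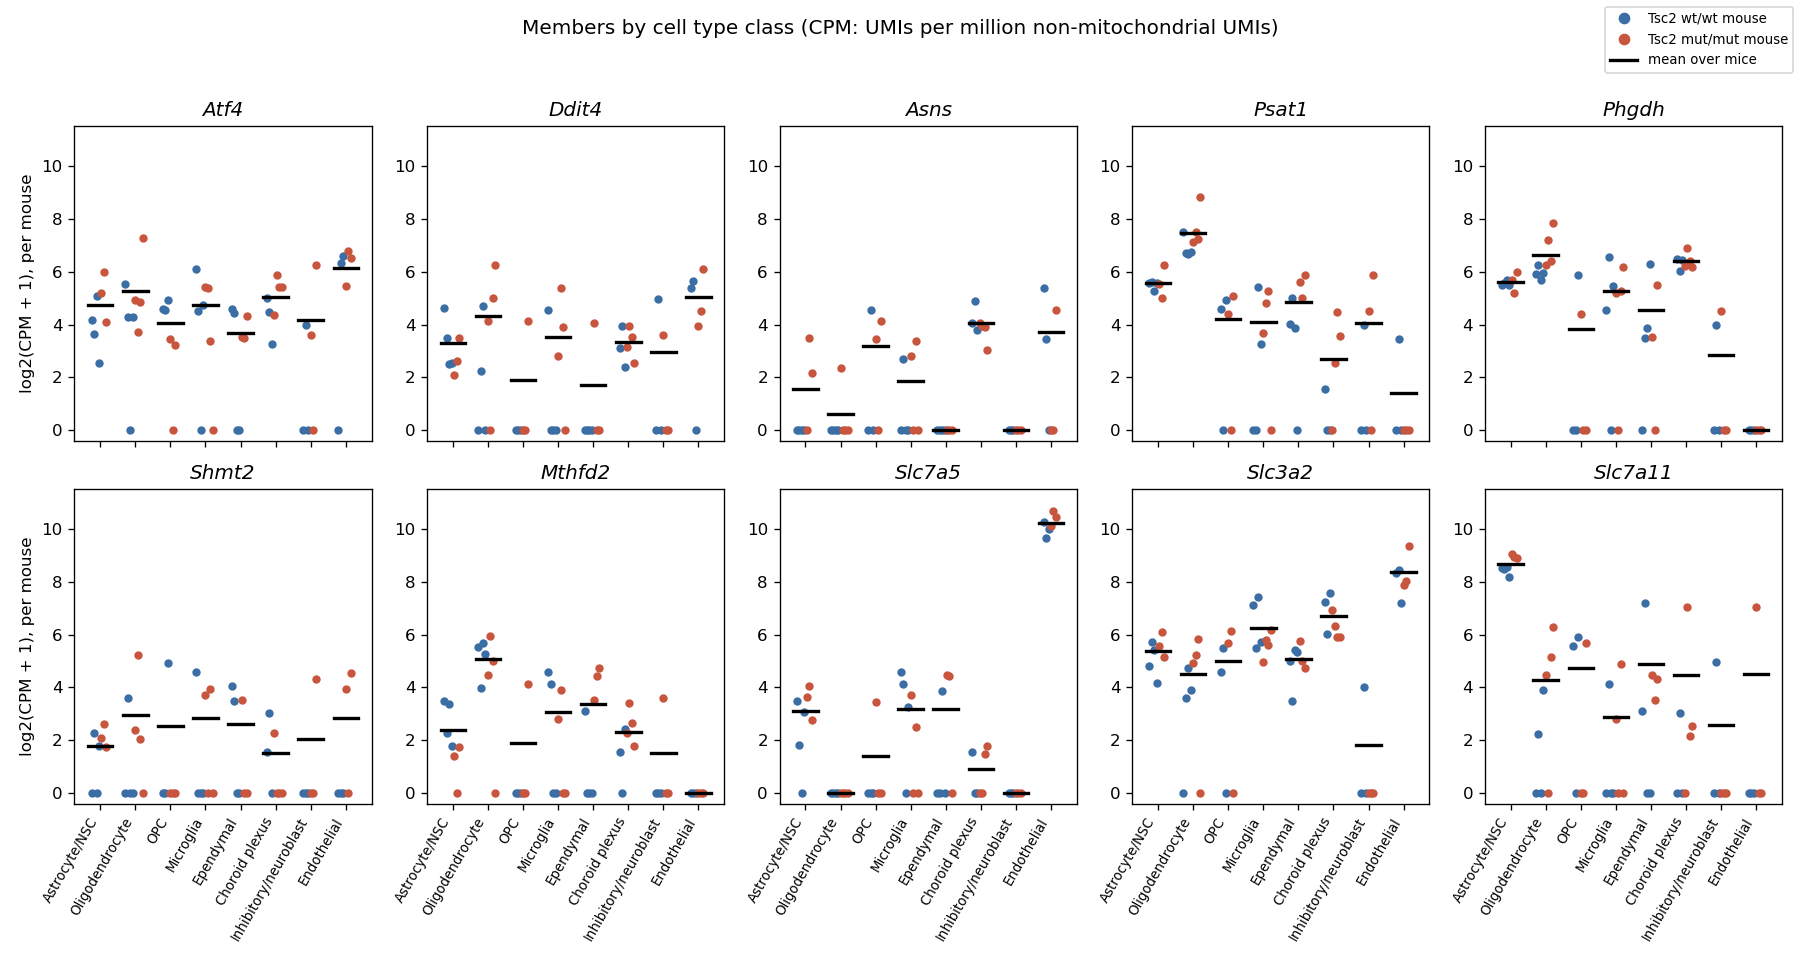
Level of each member as log2(CPM + 1) (y axis) in 8 cell type classes (x axis), 1 point per mouse with enough nuclei, blue for Tsc2 wt/wt and red for Tsc2 mut/mut. Slc7a5 stood at 802 to 1636 CPM in the 6 endothelial samples and Slc7a11 at 287 to 523 CPM in the 7 astrocyte/NSC samples, both above every other class.

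Atf4 transcripts were spread over the classes. Endothelial nuclei had 69.6 ± 40.7 CPM (n = 6 mice), oligodendrocytes 38 ± 48.1 CPM (n = 8), choroid plexus 31.8 ± 16.9 CPM (n = 7), microglia 26 ± 23.6 CPM (n = 8) and astrocyte/NSC nuclei 25.6 ± 19.4 CPM (n = 7). Inhibitory neurons or neuroblasts (17 CPM), oligodendrocyte progenitors (15.5 CPM) and ependymal nuclei (12 CPM) came last, and no neighbour in this order differed beyond the spread between mice. Here and below, that means a mean difference within the mice sampled for both classes that is larger than its SD. In endothelial nuclei the values of single mice were 0, 79.2 and 96 CPM in Tsc2 wt/wt replicates 1, 2 and 4 and 43.4, 109 and 89.8 CPM in Tsc2 mut/mut replicates 1, 2 and 3. The first of these samples fell below the other gated nuclei of its mouse, and the other 5 lay above theirs. Atf4 was called higher there (log2 fold change 1.09, SE 0.44, adjusted p = 0.0394, edgeR quasi-likelihood test), but only in 2 of the 6 fits that left out a mouse: without Tsc2 wt/wt replicate 2 or 4, or Tsc2 mut/mut replicate 2 or 3, the adjusted p was 0.248, 0.113, 0.0882 and 0.102 in turn, and DESeq2 gave 0.125. In choroid plexus nuclei the log2 fold change was 0.67 (SE 0.29, adjusted p = 0.0282, edgeR), while the CPM were higher in 4 of 7 mice and the call was lost without Tsc2 mut/mut replicate 3 (adjusted p = 0.256) and under DESeq2 (adjusted p = 0.0704). The mean log2 ratio to the other gated nuclei was -0.02 in wild types (n = 3) and 0.18 in mutants (n = 4), below the fitted value. Free RNA held 40.1 ± 11.9 CPM of Atf4 (n = 8), above the mean of all classes except the endothelial one.

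Ddit4, the mTORC1 inhibitor also called REDD1, was lower still. Its mean was 32.3 ± 24.7 CPM in endothelial nuclei (n = 6) against 8.88 ± 3.56 CPM in the other gated nuclei of the same mice, and 2.27 to 19.1 CPM in the other classes. Single endothelial samples held 0 to 5 UMIs, with values from 0 to 67.3 CPM that overlapped the other nuclei. It passed the filter on low counts in no class. Without the filter, its adjusted p in endothelial nuclei was 0.076 in edgeR and 0.03 in DESeq2. A list of 15 dissociation stress and immediate early genes summed to 3422 ± 943 CPM in endothelial and 4248 ± 1693 CPM in microglial nuclei, against 151 ± 63.6 CPM in astrocyte/NSC nuclei, and its part in the levels of Atf4 and Ddit4 was not tested.

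Asns, which makes asparagine from aspartate, had most of its gated UMIs in the choroid plexus, the epithelium that secretes cerebrospinal fluid. Of its 54 UMIs in gated nuclei, 36 (66.7%) were in choroid plexus nuclei, which held 27.5% of all gated non-mitochondrial UMIs. The choroid plexus samples had 15.5, 28.7 and 12.9 CPM in Tsc2 wt/wt replicates 1, 2 and 4, and 15.6, 14.6, 14.1 and 7.31 CPM in Tsc2 mut/mut replicates 1 to 4. The other gated nuclei of these mice had 2.14 ± 1.81 CPM (n = 7), and the groups did not overlap. Endothelial nuclei came next in the order, at 12.1 ± 16.5 CPM (n = 6) from 4 UMIs. That step did not exceed the spread between mice (difference 4.75 ± 17.5 CPM, n = 6). Free RNA held 14.6 ± 2.79 CPM of Asns (n = 8), close to the mean of the choroid plexus samples (15.5 ± 6.45 CPM) and above that of every other class. Asns was too rare to pass the filter on low counts. In the edgeR fit without that filter it was higher in choroid plexus nuclei by 3.65 on the log2 scale (adjusted p = 5.42e-12), and DESeq2 gave an adjusted p of 2.26e-06. That edgeR fit called 10242 of 21653 genes. The mean log2 ratio to the other gated nuclei was 3.15 in wild types (n = 3) and 2.16 in mutants (n = 4), below the fitted value. Unfiltered edgeR fits placed Asns lower in astrocyte/NSC nuclei (log2 fold change -2.12, adjusted p = 0.00538) and in oligodendrocytes (adjusted p = 0.0073, though 0.111 in DESeq2), where 1 UMI was counted and the other gated nuclei, pooled over mice, were 7.5-fold higher (95% exact counting interval 1.29 to 302). In both contrasts the other gated nuclei include the choroid plexus ones. No Asns UMI was counted in ependymal nuclei or in inhibitory neurons or neuroblasts, which allows up to 3.91 and 10.4 CPM.

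**Figure D2:**
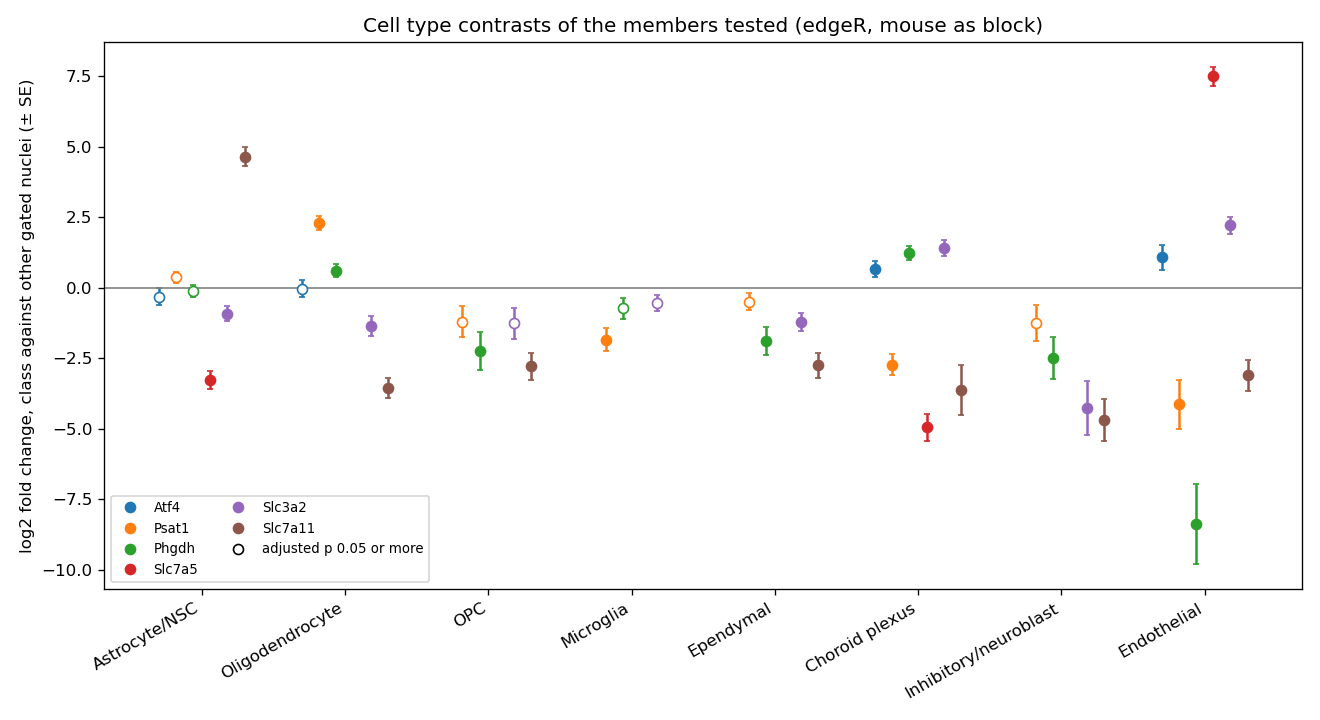
Log2 fold change (y axis) of each member tested between the nuclei of a class and all other gated nuclei of the same mice, with bars of 1 SE, from edgeR with mouse as a block. The highest value is Slc7a5 in endothelial nuclei at 7.50, the next Slc7a11 in astrocyte/NSC nuclei at 4.65. The value of Phgdh in endothelial nuclei rests on 0 UMIs and depends on the prior count of the fit.

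The genes of the first enzymes of serine synthesis, Psat1 and Phgdh, both had their highest mean in oligodendrocytes and parted in the choroid plexus. PHGDH carries out the first, committed step from 3-phosphoglycerate and PSAT1 the transamination that follows. Psat1 was at 180, 104, 101 and 107 CPM in the oligodendrocytes of Tsc2 wt/wt replicates 1 to 4, and at 138, 181, 152 and 457 CPM in those of Tsc2 mut/mut replicates 1 to 4, the last from 6 nuclei. All 8 lay above the other gated nuclei (25.8 ± 12 CPM), with no overlap, a log2 fold change of 2.29 (SE 0.25, adjusted p = 2.99e-08, edgeR). Its order ran from oligodendrocytes (178 ± 117 CPM, n = 8) to astrocyte/NSC nuclei (47.1 ± 13.8 CPM, n = 7) and ependymal nuclei (28 ± 20.1 CPM, n = 7). Each of the first 2 steps in that order exceeded the spread between mice, the second narrowly (differences 90.6 ± 37 and 19.1 ± 17.2 CPM, n = 7). Psat1 was lower in choroid plexus (5.55 ± 7.92 CPM, log2 fold change -2.73, adjusted p = 1.83e-09), microglial (-1.84, adjusted p = 0.000578) and endothelial nuclei (adjusted p = 8.56e-05), all by edgeR. The endothelial value rests on 2 UMIs, with the other gated nuclei pooled over mice 7.86-fold higher (95% exact counting interval 2.16 to 65.1), and its fitted log2 fold change of -4.13 became -7.96 without Tsc2 wt/wt replicate 2. Free RNA held 120 ± 17.3 CPM of Psat1 (n = 8), below the oligodendrocyte mean and above that of every other class. In astrocyte/NSC nuclei its log2 fold change was 0.37 (SE 0.19, adjusted p = 0.105, edgeR), and among the fits that left out a mouse it was called there only without Tsc2 mut/mut replicate 2 (adjusted p = 0.0442).

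Phgdh, in contrast, was higher in choroid plexus as well, although no class reached the 162 ± 19.1 CPM that free RNA held (n = 8). Oligodendrocytes had 97.3 ± 60.4 CPM (n = 8), choroid plexus 83.9 ± 17.1 CPM (n = 7) and astrocyte/NSC nuclei 47.9 ± 8.45 CPM (n = 7), and only the step from choroid plexus to astrocyte/NSC nuclei exceeded the spread between mice. The choroid plexus samples ranged from 64.5 to 117 CPM, against 53.2 ± 28.7 CPM in the other gated nuclei. Phgdh was higher there in 6 of 7 mice (log2 fold change 1.23, SE 0.24, adjusted p = 6.27e-06, edgeR), where the median gene was lower. Its mean log2 ratio to the other gated nuclei was 0.95 in wild types (n = 3) and 0.60 in mutants (n = 4), below the fitted value. In oligodendrocytes it was higher in 8 of 8 mice with overlap of the groups (log2 fold change 0.61, SE 0.23, adjusted p = 0.0287, edgeR). That call was lost without Tsc2 wt/wt replicate 2, Tsc2 mut/mut replicate 1 or Tsc2 mut/mut replicate 2 (adjusted p = 0.0811, 0.0963 and 0.192) and under DESeq2 (adjusted p = 0.393).

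Phgdh was lower in 4 classes. Its log2 fold changes were -1.89 in ependymal nuclei (adjusted p = 0.00406), -2.49 in inhibitory neurons or neuroblasts (adjusted p = 0.00392, from 3 UMIs in the class) and -2.25 in oligodendrocyte progenitors (adjusted p = 0.00576, but 0.141 without Tsc2 mut/mut replicate 3), by edgeR. In the inhibitory class the other gated nuclei, pooled over mice, were 5.49-fold higher (95% exact counting interval 1.87 to 26.7). In endothelial nuclei 0 UMIs were counted among 357021 non-mitochondrial UMIs, which allows 8.40 CPM (3 counts over the class). The other gated nuclei had 57.5 CPM pooled over mice, so Phgdh was at least 6.85-fold lower in endothelial nuclei (adjusted p = 3.13e-06, edgeR). These endothelial nuclei were at the same time the class richest in Slc7a5.

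Mthfd2 and Shmt2 encode mitochondrial enzymes of one-carbon metabolism, which take the serine carbon onto folate. Of the 77 Mthfd2 UMIs in gated nuclei, 37 (48.1%) came from oligodendrocytes. Their values were 45.1, 14.9, 50.7 and 37.4 CPM in Tsc2 wt/wt replicates 1 to 4 and 20.9, 60.2, 31 and 0 CPM in Tsc2 mut/mut replicates 1 to 4, the last from 6 nuclei. The mean of 32.5 ± 19.9 CPM was above that of the other gated nuclei (4.55 ± 1.82 CPM) and of the next class, ependymal nuclei at 9.23 ± 10.5 CPM. Mthfd2 did not pass the filter in any class. Without it, the log2 fold change in oligodendrocytes was 2.37 (adjusted p = 2.95e-09, edgeR; adjusted p = 2.91e-07, DESeq2), and in astrocyte/NSC nuclei -1.47 (adjusted p = 0.00665, edgeR). Shmt2 had class means of 1.86 to 6.82 CPM, no neighbours in the order that differed beyond their spread, and no call in any class with or without the filter.

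The largest increases among the members tested were those of transporter genes, Slc7a5 and Slc7a11. SLC7A5 (LAT1) carries large neutral amino acids such as leucine and is known in brain as a transporter of the blood-brain barrier. Most of its transcripts were in endothelial nuclei, with 398 of 443 gated UMIs (89.8%) in 73 nuclei. The endothelial samples held 1236, 802 and 1008 CPM in Tsc2 wt/wt replicates 1, 2 and 4 and 1113, 1636 and 1392 CPM in Tsc2 mut/mut replicates 1, 2 and 3. All 6 were far above the other gated nuclei of the same mice (5.05 ± 2.3 CPM), a log2 fold change of 7.50 (SE 0.33, adjusted p = 5.92e-25, edgeR). Free RNA held 11.9 ± 3.24 CPM, and microglia, the next class, 8.05 ± 8.5 CPM.

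All 12 endothelial markers were higher in the endothelial class, but they were used to choose it, so this is no separate check of its identity. The hemoglobin gene Hbb-bs, which was not a marker, was also among its leading genes. The 62 endothelial nuclei with no hemoglobin UMI held 1054 CPM of Slc7a5 (95% Poisson interval 938 to 1180), and the 11 with one held 1359 CPM (1102 to 1658). Mitochondria-rich barcodes that passed the endothelial gate gave 1083 CPM (886 to 1312) from 105 UMIs. Ddit4 stood at 28.0 CPM (12.1 to 55.2, 8 UMIs) in endothelial nuclei without a hemoglobin UMI. In those with one it stood at 84.1 CPM (30.9 to 183, 6 UMIs), with overlapping intervals. Slc3a2 had 308 and 434 CPM and Atf4 63 and 56 CPM in the same order. Slc7a5 was lower in astrocyte/NSC (log2 fold change -3.28, adjusted p = 4.21e-07) and choroid plexus nuclei (-4.95, adjusted p = 2.59e-14) by edgeR, where the other gated nuclei include the endothelial ones. In oligodendrocytes 0 UMIs were counted, at least 20.9-fold lower than in the other gated nuclei (50.3 CPM pooled over mice against a floor of 2.41 CPM for 3 counts over the class). Most of that pooled level came from the endothelial nuclei.

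SLC3A2 (4F2hc, CD98) is the heavy chain that both SLC7A5 and SLC7A11 need to reach the membrane. Its endothelial values were 324, 346 and 144 CPM in Tsc2 wt/wt replicates 1, 2 and 4 and 231, 262 and 651 CPM in Tsc2 mut/mut replicates 1, 2 and 3, with none overlapping the other gated nuclei (56.3 ± 16.9 CPM). The log2 fold change was 2.21 (SE 0.29, adjusted p = 1.03e-08, edgeR). Choroid plexus nuclei, at 58.5 to 189 CPM (mean 103 ± 51.1 CPM, n = 7), were higher than the other gated nuclei in 7 of 7 mice (log2 fold change 1.41, SE 0.28, adjusted p = 1.14e-05, edgeR). Endothelial nuclei exceeded choroid plexus nuclei narrowly beyond the spread between mice (difference 216 ± 213 CPM, n = 6). Slc3a2 was thus called higher in 2 classes, and Slc7a5 and Slc7a11 in 1 each. Slc3a2 was lower in astrocyte/NSC (40.9 ± 16.6 CPM, log2 fold change -0.92, adjusted p = 0.00767), oligodendrocyte (-1.36, adjusted p = 0.00184), ependymal (-1.21, adjusted p = 0.00439) and inhibitory neuron or neuroblast nuclei (adjusted p = 5.8e-05) by edgeR. In these contrasts the other gated nuclei include the choroid plexus and endothelial ones, which held 41.2% and 18.8% of the gated Slc3a2 UMIs. The inhibitory value rests on 1 UMI, with the other gated nuclei pooled over mice 18.8-fold higher (95% exact counting interval 3.35 to 742), and its fitted log2 fold change of -4.26 became -8.56 without Tsc2 wt/wt replicate 2. With the mitochondrial limit at 10%, the astrocyte/NSC and ependymal calls were lost. Its log2 fold changes in oligodendrocyte progenitors (-1.26, adjusted p = 0.0627) and microglia (-0.53, adjusted p = 0.105) were not called by edgeR.

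SLC7A11 (xCT) exchanges glutamate for cystine, the source of cysteine for glutathione. Astrocyte/NSC nuclei held 1421 of its 1532 gated UMIs (92.8%). Their values were 368, 351, 376 and 287 CPM in Tsc2 wt/wt replicates 1 to 4 and 523, 490 and 475 CPM in Tsc2 mut/mut replicates 1 to 3. All 7 were far above the other gated nuclei (17.9 ± 17.9 CPM), a log2 fold change of 4.65 (SE 0.33, adjusted p = 2.48e-08, edgeR). Each other class had a mean of 5 to 28.9 CPM, below the 59.5 ± 17 CPM of free RNA. The log2 fold changes by edgeR were -2.75 to -4.67 in the 6 other classes in which Slc7a11 was tested, all called. In each of these contrasts the other gated nuclei include the astrocyte/NSC nuclei, which held most of the Slc7a11 UMIs. In both classes with the fewest UMIs the size depends on 1 mouse. With each mouse left out in turn, the endothelial value (9 UMIs) ranged from -9.85 to -2.61, the latter without Tsc2 wt/wt replicate 2 and the former without Tsc2 mut/mut replicate 1. The value in inhibitory neurons or neuroblasts (2 UMIs) ranged from -9.87, without Tsc2 wt/wt replicate 2, to -4.16. The other gated nuclei, pooled over mice, were 22.7-fold higher than this inhibitory class (95% exact counting interval 6.27 to 188). Mitochondria-rich barcodes that passed the astrocyte/NSC gate held 236 CPM (95% Poisson interval 159 to 336, 30 UMIs).

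Genes whose class means followed a member most closely were looked for as a description, over 8 cell types and 8057 genes with a mean of at least 20 CPM. Slc7a11 was like Stard7 (Pearson r of log2(CPM + 1) 0.976). Slc7a5 was most like Gbp7 (0.973) and Slfn5 (0.970), Slc3a2 most like Vps36 (0.993) and Ube2q1 (0.970), Psat1 most like Nipa1 (0.961) and Lztr1 (0.941), and Phgdh most like Immp1l (0.943) and Ppfibp2 (0.911). The points share their libraries and differ in depth between classes.

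Other genes of the response were listed by function and described in the same contrasts. Of the 21 listed enzymes of serine, glycine, proline and one-carbon metabolism, 12 were tested in astrocyte/NSC nuclei, and 5 were higher and 2 lower, beside 26.8% and 37% of all genes. The higher ones included Gldc of the glycine cleavage system (372 ± 42.4 CPM, log2 fold change 4.30, adjusted p = 8.56e-10, edgeR), Cbs, which condenses serine with homocysteine (142 ± 21.8 CPM, 3.60), and Aldh1l1, a folate enzyme and astrocyte marker (121 ± 21.1 CPM, 2.34). Of 16 listed ATF4 targets and stress regulators, 5 were tested in astrocyte/NSC nuclei, with 1 higher and 2 lower, beside the same shares. The higher one was Cth, which makes cysteine in the step after Cbs. It was at 45 ± 17.6 CPM against 5.53 ± 4.49 CPM in the others (log2 fold change 3.26, adjusted p = 1.19e-06, edgeR). The largest change in that list was lower, Atf3 at 1.33 ± 3.51 CPM against 45.4 ± 15.1 CPM (log2 fold change -5.74, adjusted p = 2.41e-07, edgeR). In endothelial nuclei 8 of the listed enzymes were tested, with 0 higher and 5 lower, beside 15.8% and 30.8% of all genes. In oligodendrocytes 8 were tested, with 1 higher, Mthfd1l of mitochondrial one-carbon metabolism (63.5 ± 19.2 CPM, log2 fold change 1.63, adjusted p = 1.5e-05, edgeR), and 5 lower, beside 21.3% and 32.1% of all genes.

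Of 18 other amino acid transporters, 10 were tested in endothelial nuclei (15.8% of all genes higher, 30.8% lower), and 2 were higher: Slc7a1, a carrier of cationic amino acids (810 ± 285 CPM, log2 fold change 6.82), and Slc6a6, the taurine carrier (2261 ± 532 CPM, 5.25), while 4 were lower. In astrocyte/NSC nuclei 5 of 14 tested were higher, among them Slc7a2 (186 ± 18.3 CPM, log2 fold change 3.42), and 6 lower, beside 26.8% and 37% of all genes. Microglia had Slc7a8, a relative of Slc7a5, at 410 ± 114 CPM (log2 fold change 5.36), and ependymal nuclei had the glutamine carrier Slc38a1 at 1191 ± 189 CPM (4.37). In choroid plexus nuclei 10 of 11 tested were lower and 0 higher, where 53.4% of all genes were lower and 32.5% higher. Of the aminoacyl-tRNA synthetases of the cytosol, which load amino acids onto tRNA, 6 of 12 tested were higher there, 0 were lower and the others were not called. Those higher included Gars (101 ± 18.4 CPM, log2 fold change 1.97), Nars (96.8 ± 28.2 CPM, 1.74) and Sars (77.9 ± 23.2 CPM, 1.52). All of these named genes were called by edgeR after adjustment over all genes of the class. Of 16 further ATF4 targets and stress regulators, 4 were tested in endothelial nuclei and 1 called, the endoplasmic reticulum stress gene Herpud1 (higher, log2 fold change 1.52). In choroid plexus nuclei 5 of these were tested, with 1 higher and 1 lower. Of 15 eIF2alpha kinases and eIF2 factors, 11 were tested in choroid plexus nuclei, with 5 higher and 5 lower.

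The 2 kinds of barcode were compared within each mouse, since most kept barcodes were mitochondria-rich. Of the 10 members, 7 were lower in nucleus-like barcodes and 0 higher, where 78.1% of 11231 genes were called (39.3% higher, 38.8% lower). Psat1 fell from 154 ± 18.5 CPM in mitochondria-rich to 40.7 ± 12.9 CPM in nucleus-like barcodes (log2 fold change -2.54, adjusted p = 4.12e-07, edgeR), in 8 of 8 mice without overlap. Asns (17.1 ± 3.62 to 5.22 ± 1.95 CPM, -2.26) and Phgdh (181 ± 22.2 to 58.2 ± 9.47 CPM, -2.22) did so too. Atf4 (-1.45), Ddit4 (-1.40) and Shmt2 (-1.37) were lower with overlapping groups. Slc3a2 was called lower (log2 fold change -0.52, adjusted p = 0.00925, edgeR), although its CPM were 63.1 ± 13.3 in nucleus-like and 59.7 ± 5.25 in mitochondria-rich barcodes and higher in 5 of 8 mice, so its direction depends on the scaling, and the call was lost with the mitochondrial limit at 30%.

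Mthfd2 (log2 fold change 0.22), Slc7a5 (0.56, adjusted p = 0.0562) and Slc7a11 (0.39, adjusted p = 0.268) were not called between the kinds of barcode. Without Tsc2 mut/mut replicate 4, Slc7a5 and Slc7a11 were called higher in nucleus-like barcodes (adjusted p = 0.00238 and 0.00119, edgeR). Mitochondria-rich levels lay near those of free RNA for several members: Psat1 120 ± 17.3, Phgdh 162 ± 19.1, Asns 14.6 ± 2.79 and Atf4 40.1 ± 11.9 CPM in free RNA (n = 8). The part of free RNA in the difference was not tested. Among the listed ATF4 targets, 2 of 11 tested were higher in nucleus-like barcodes and 6 lower, the latter including Nupr1 (log2 fold change -3.70), Ddit3 (-2.76) and Atf5 (-2.69).

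**Figure D3:**
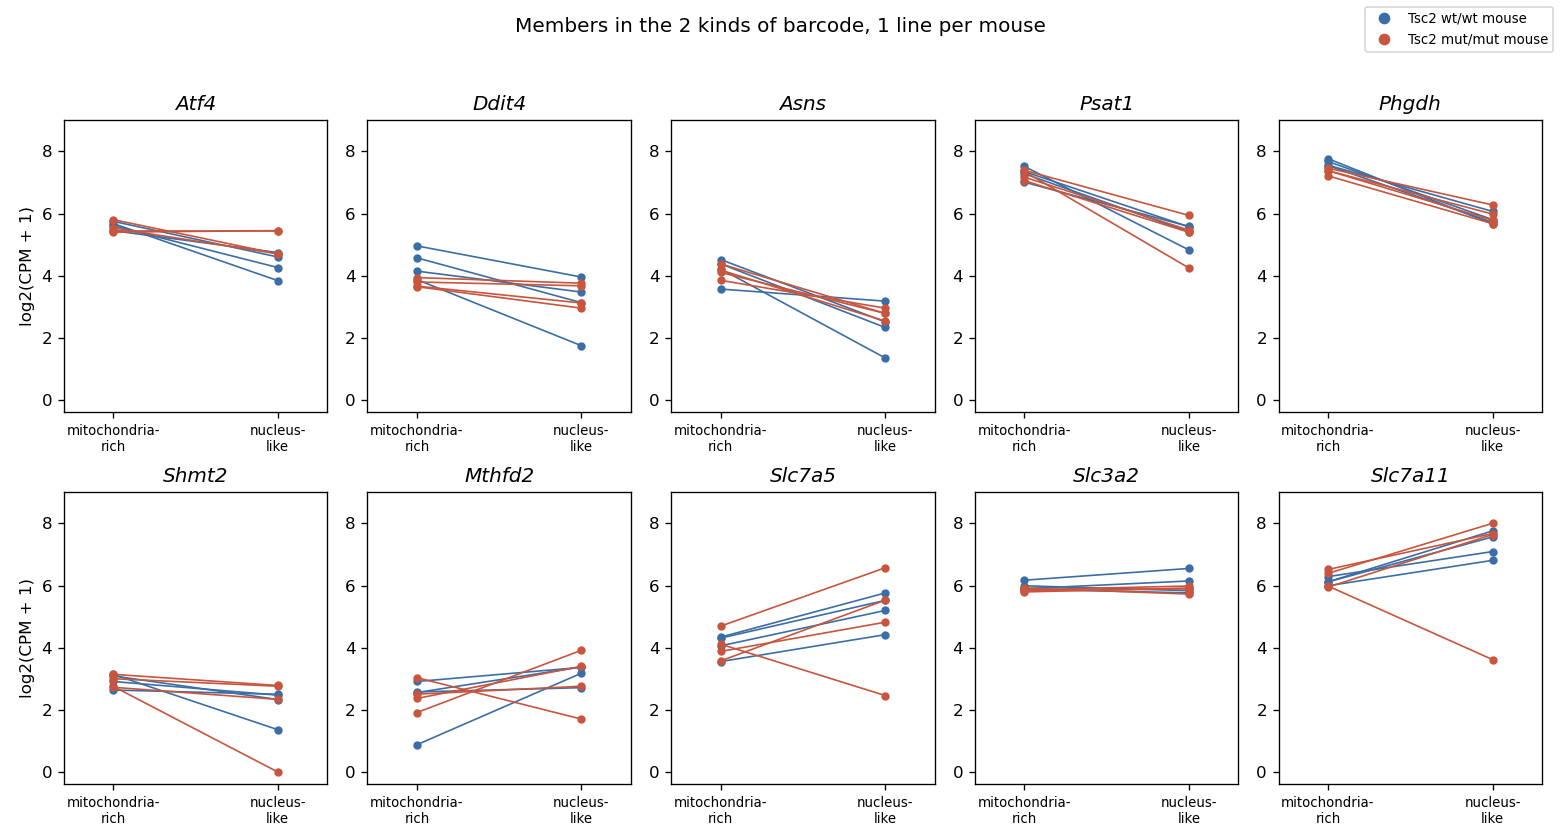
Level of each member as log2(CPM + 1) (y axis) in mitochondria-rich and nucleus-like barcodes (x axis), 1 line per mouse. All 8 lines fall for Ddit4, Asns, Psat1, Phgdh and Shmt2, whereas Slc7a5 and Slc7a11 rise in 7 of 8 mice and fall in Tsc2 mut/mut replicate 4.

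Between genotypes, no member that was tested was called in any of the sets compared. The low-count filter left 5 members to test within astrocyte/NSC nuclei, 3 within choroid plexus, 2 within oligodendrocytes, and 0 within microglia or ependymal nuclei. Oligodendrocyte progenitors, inhibitory neurons or neuroblasts and endothelial nuclei were too few for a fit between genotypes. Over all kept barcodes, edgeR called 2 of 12916 genes (0.0155%; 331 at an unadjusted p under 0.05, and 6 by DESeq2) and 0 of the 10 members, none of which had an unadjusted p under 0.05. In such sums, fewer cells of a type and less RNA per cell cannot be told apart. Atf4 had values of 34.1, 37.7, 44.1 and 36.1 CPM for Tsc2 wt/wt replicates 1 to 4, and 41.6, 42.4, 38 and 41.7 CPM for Tsc2 mut/mut replicates 1 to 4 (log2 fold change 0.21, SE 0.18). The groups overlapped, as they did for each member. Exact two-sided permutation tests of the mean CPM of 4 against 4 mice, whose smallest possible p is 0.0286, gave p from 0.143 (Slc3a2, 65.3 ± 11.6 and 57.3 ± 0.96 CPM) to 1 (Slc7a5, 25.1 ± 9.39 and 25.5 ± 13.8 CPM) over the 10 members. Ddit4 averaged 16.1 ± 5.5 CPM among wild types, while mutants averaged 11.6 ± 1.87 CPM (log2 fold change -0.37, SE 0.27).

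**Figure D4:**
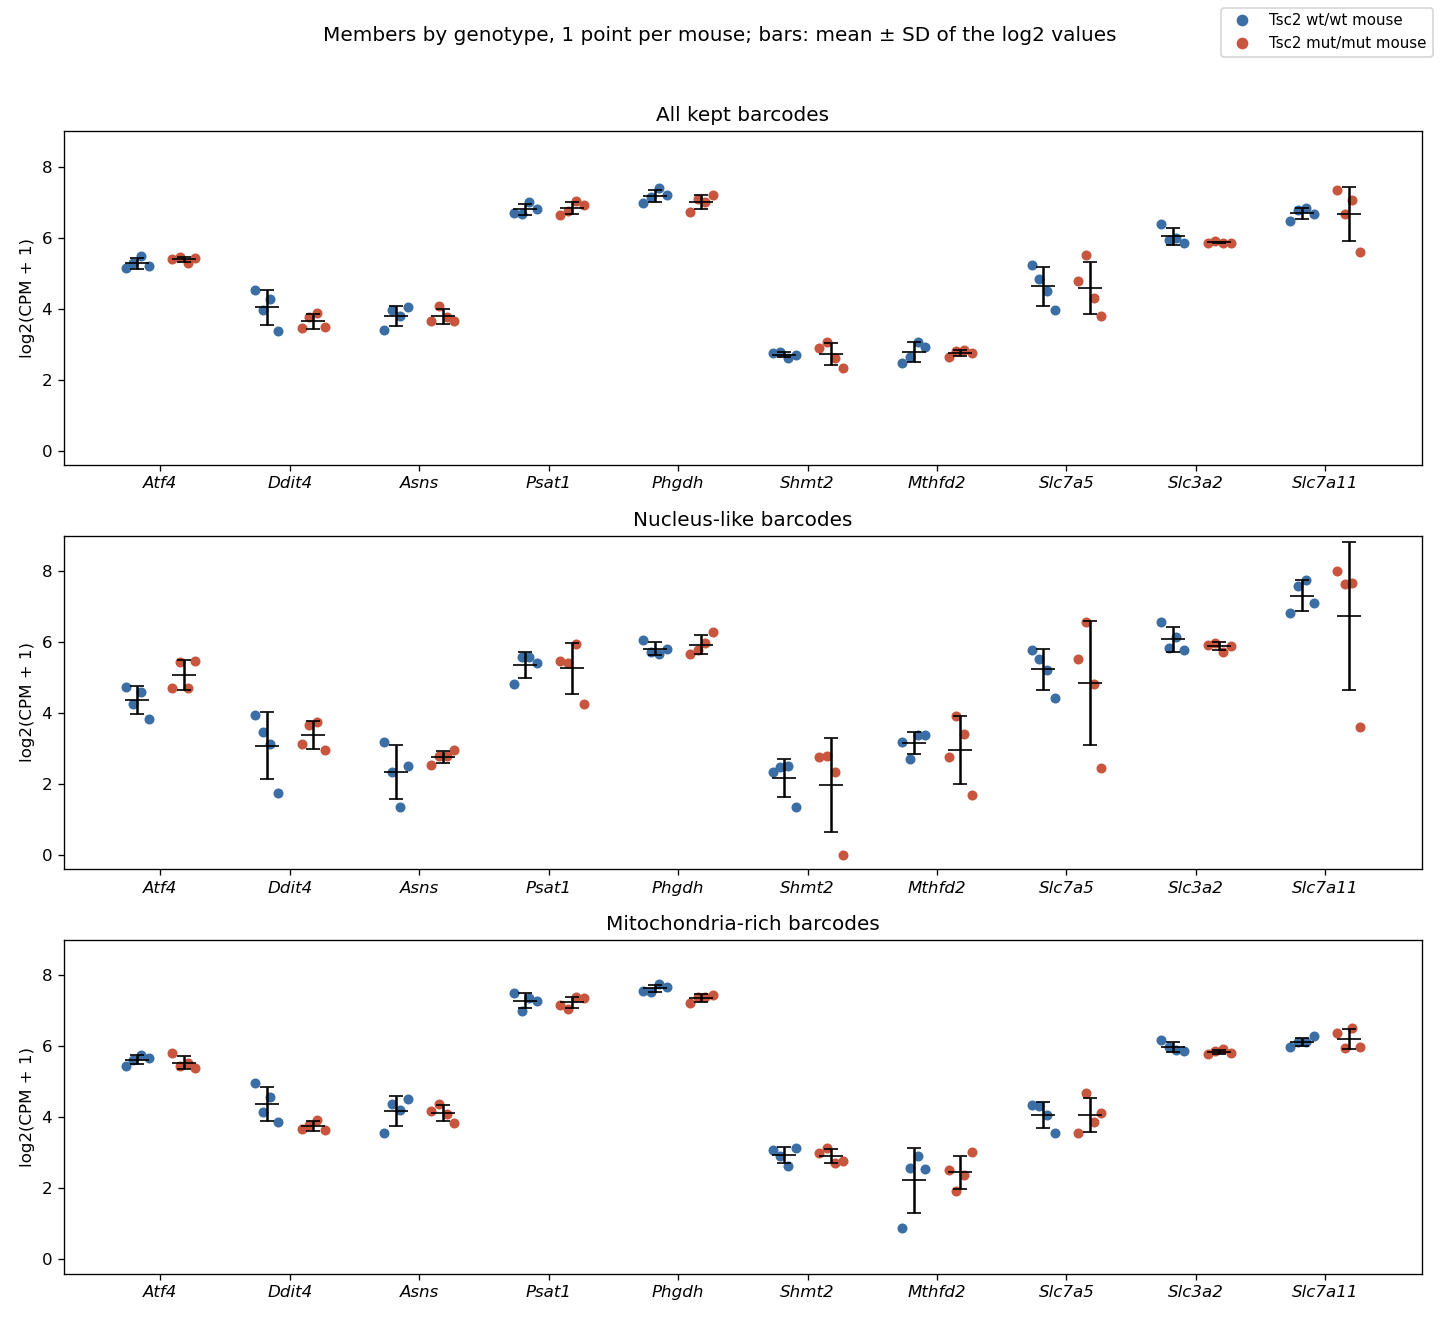
Level of each member as log2(CPM + 1) (y axis) by genotype in all kept, nucleus-like and mitochondria-rich barcodes, 1 point per mouse with mean ± SD of the log2 values. Points of both genotypes overlap for every member in all kept and in nucleus-like barcodes, while those of Phgdh do not in mitochondria-rich barcodes. Tsc2 mut/mut replicate 4 lies lowest for Slc7a5 and Slc7a11 among nucleus-like barcodes, at 4.51 and 11.3 CPM.

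In nucleus-like barcodes, 0 of 11048 genes were called by edgeR (background 0%; 168 at an unadjusted p under 0.05, and 1 by DESeq2). The wild-type mice had 25.8, 18.2, 23.3 and 13.4 CPM of Atf4, replicates 1 to 4, and the mutant mice 25, 42.4, 25.1 and 42.8 CPM. The 2 highest values were mutant, and the others overlapped. Its log2 fold change was 1.01 (SE 0.44, adjusted p = 0.923, edgeR), and 0.48 without Tsc2 mut/mut replicate 4, the library made up largely of choroid plexus nuclei. The fits within classes gave Atf4 at 16.4 ± 11.8 (n = 4) and 37.8 ± 23 CPM (n = 3) in astrocyte/NSC nuclei (log2 fold change 1.09, SE 0.53, adjusted p = 0.59, edgeR), and at 20.4 ± 11.3 (n = 3) and 40.4 ± 16 CPM (n = 4) in choroid plexus nuclei (0.87, SE 0.43, adjusted p = 0.358, edgeR). Between 21 and 75 UMIs per group and class lay behind these values, and neither difference passed the test.

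Slc7a11 in astrocyte/NSC nuclei showed the smallest unadjusted p of any member. The Tsc2 wt/wt mice had 346 ± 40.7 CPM (n = 4) and the Tsc2 mut/mut mice 496 ± 24.7 CPM (n = 3), without overlap. The log2 fold change was 0.47 (SE 0.14), with an adjusted p of 0.346 over the 5895 genes tested in astrocyte/NSC nuclei (edgeR), of which 0 were called (background 0%; 508 at an unadjusted p under 0.05). The exact two-sided permutation p was 0.0571, the smallest that 4 against 3 mice allow. Tsc2 mut/mut replicate 4, with 4 such nuclei and 5 UMIs, was left out of that comparison and stood at 383 CPM, between both groups. Relative to the other gated nuclei of the same mice, the means went the other way, with overlap. The mean log2 ratio of Slc7a11 was 5.94 in wild types (n = 4, range 3.74 to 8.56). In mutants it was 4.21 (n = 3, range 3.19 to 4.86, exact two-sided permutation p = 0.229). Astrocyte/NSC nuclei held 1421 of the 1532 gated Slc7a11 UMIs. The other nuclei thus had few, and the counts do not fix the size of these ratios. Slc3a2 in choroid plexus nuclei had a lower mean among mutants (134 ± 63.5 CPM, n = 3, and 79.2 ± 29.1 CPM, n = 4, log2 fold change -0.87, SE 0.36, adjusted p = 0.294, edgeR), and was called only without Tsc2 wt/wt replicate 2 (-1.16, adjusted p = 0.00673). Choroid plexus nuclei called 0.462% of 3031 genes, oligodendrocytes 0.104% of 3861, microglia 0.0374% of 2672 and ependymal nuclei 0% of 2617.

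In mitochondria-rich barcodes 29 of 10522 genes were called (0.276%) and 0 of 10 members. At an unadjusted p under 0.05 by edgeR there were 1458 genes, 2 of the members among them. Phgdh had values of 188, 186, 217 and 204 CPM for wild-type replicates 1 to 4, and the mutant replicates 1 to 4 gave 148, 166, 166 and 175 CPM. The groups did not overlap (exact two-sided permutation p = 0.0286, the smallest possible), and the log2 fold change was -0.29 (SE 0.11, adjusted p = 0.219, edgeR). The share of all genes without overlap is not given here, so this separation is a description only. Ddit4 was at 20.9 ± 7.28 and 12.6 ± 1.31 CPM (log2 fold change -0.65, SE 0.22, adjusted p = 0.193, edgeR). The sums of the 15 dissociation stress genes in these barcodes were 1052 to 1080 CPM among wild types and 767 to 1055 CPM among mutants, and their part in the values of Ddit4 was not tested. None of the pathway list genes that were tested was called between genotypes in any set. Over all kept barcodes, the tested genes had list medians of 0.09 for 12 ATF4 targets and stress regulators, 0.16 for 15 eIF2alpha kinases and eIF2 factors, -0.01 for 18 enzymes, -0.12 for 15 transporters, 0.05 for 20 synthetases and -0.29 for 15 dissociation stress genes on the log2 scale, where the median of all genes was 0.01. In nucleus-like barcodes these medians were 0.28, 0.27, 0.13, -0.22, 0.27 and -0.40 in the same order, where the median of all genes was 0.04. Whether a member's genotype difference itself differed between a class and the other gated nuclei was tested for 80 combinations of class and member, and the smallest exact permutation p was 0.0571 (0.875 after Benjamini-Hochberg adjustment). With 4 against 4 mice or fewer, no combination could have passed 0.05 after that adjustment, so these tests cannot decide the question.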

How the data were processed

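Nuclei of the V-SVZ were sequenced with the 10x Genomics 3′ v3.1 chemistry. The deposited values are UMI counts per gene and barcode, which the authors made with Cell Ranger 7.0.1 on GRCm38 (mm10), 60000 barcodes being kept per library; Seurat 4 is named in the submitters' processing notes. The annotation release and whether introns were counted are not given in the sources used here. Sorting excluded doublets; no doublet caller was run, and 267 barcodes with markers of more than 1 class were left ungated.

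Barcodes with at least 300 genes were kept and split at a mitochondrial share of 20%. A class needed 3 distinct markers and 4 times the marker UMIs predicted from free RNA, with the next class at or under 0.5 of that ratio. Of 131 markers, 8 that exceeded 0.04% of free RNA UMIs were dropped. The 13 mitochondrial genes were left out of library sizes and tests. UMIs were summed per mouse and tested with edgeR 4.0.16 (TMM, filterByExpr, robust quasi-likelihood, Benjamini-Hochberg, threshold 0.05) in R 4.3.3, with DESeq2 1.42.0 as an alternative. Scripts were tested on simulated data. Mice, numbered by the labels within a genotype, were the replicates, so p-values measure the spread between these samples.

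Classes were to need 20 nuclei in every mouse between genotypes and 10 in every mouse between classes. No class met this, so mice with at least 15 nuclei and at least 3 mice per genotype were used, and mice with at least 5 nuclei and at least 6 mice. Members and lists were chosen with earlier results of these data known. Named were all members, Tsc2, and per list up to 3 called genes of largest change that moved one way in every mouse. One gene of the likeness description is not reported here.

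Alternatives covered size factors, DESeq2, no filter, a replicate block, each mouse left out, and limits on genes, mitochondrial share, gate and reference.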

Additional observations from a re-analysis of the deposited data

Results flagged for a closer look

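Of 130 groups of 4 mice checked for a single sample far from the others, 17 were flagged, where chance flags about 5% of groups of continuous values. A group with 1 mouse above 0 and the others at 0 meets the rule whatever its value, so no excess over 5% is read. Most flags rest on 1 or a few UMIs, and the other values given are those of mice of the same genotype. In oligodendrocytes these were Atf4 in Tsc2 mut/mut replicate 4 (152 CPM, others 12 to 29.2), Ddit4 in Tsc2 wt/wt replicate 3 (25.4 CPM, others 0 to 3.73), Asns in Tsc2 mut/mut replicate 1 (4.17 CPM, others 0), Psat1 in Tsc2 wt/wt replicate 1 (180 CPM, others 101 to 107) and in Tsc2 mut/mut replicate 4 (457 CPM, others 138 to 181), and Shmt2 in Tsc2 wt/wt replicate 2 (11.2 CPM, others 0) and Tsc2 mut/mut replicate 2 (36.1 CPM, others 0 to 4.17). Tsc2 mut/mut replicate 4 had 6 oligodendrocyte nuclei.

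In microglia, Tsc2 wt/wt replicate 1 was alone above 0 among the wild types for Ddit4 (22.7 CPM) and Shmt2 (22.7 CPM), and Tsc2 wt/wt replicate 2 for Asns (5.48 CPM) and Slc7a11 (16.4 CPM). In ependymal nuclei, Mthfd2 stood alone above 0 among the wild types in Tsc2 wt/wt replicate 1 (7.69 CPM), Slc7a5 in Tsc2 wt/wt replicate 3 (13.7 CPM), and Slc7a11 stood out in Tsc2 wt/wt replicate 2 (144 CPM, others 0 to 7.69). In choroid plexus nuclei, Shmt2 was found among the mutants only in Tsc2 mut/mut replicate 1 (3.89 CPM), and Slc7a11 stood out in Tsc2 mut/mut replicate 2 (132 CPM, others 0 to 4.87). Over all kept barcodes, Slc3a2 was at 58.7 CPM in Tsc2 mut/mut replicate 2, against 56.6 to 56.9 CPM in the other mutant mice.

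Mthfd2 in ependymal nuclei against the other gated nuclei was higher in each of 3 Tsc2 mut/mut mice, with a mean log2 ratio of 1.01, and lower in each of 4 Tsc2 wt/wt mice, with a mean of -2.44. It was flagged by these opposite signs. Ependymal nuclei held 9 Mthfd2 UMIs over all mice, and among the wild types only Tsc2 wt/wt replicate 1 was above 0 (7.69 CPM). The ratios of the other wild types rest on 0 UMIs in the class, so the counts do not fix their size. The exact two-sided permutation test of the difference gave p = 0.0571, the smallest that 4 against 3 mice allow, and 0.875 after Benjamini-Hochberg adjustment over 80 combinations of class and member. No combination could have passed after that adjustment, so the test cannot decide the question.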

How the results depend on the processing

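No member was called between genotypes under any alternative run, except Slc3a2 in choroid plexus nuclei without Tsc2 wt/wt replicate 2. Genes called between genotypes moved from 2 over all kept barcodes to 6 with DESeq2, and to 0 with the replicate block or at least 500 genes per barcode, from 0 to 1 in nucleus-like barcodes with DESeq2, and from 29 in mitochondria-rich barcodes to 230 without the filter, 16 at 500 genes and 5 with the mitochondrial limit at 10%. Summed over the gated classes, the count moved from 19 to 54 with DESeq2, 206 without the filter and 58 with the replicate block. With the limit at 10% only 3 of the 5 classes could be fitted, and the count over those 3 moved from 5 to 1. Genes called between classes moved from 28031 to 44877 with DESeq2 and 52865 without the filter. Leaving out each mouse gave 0 to 3 genes over all kept barcodes, 17 to 57 in mitochondria-rich barcodes, 2 to 490 in the gated classes (490 without Tsc2 wt/wt replicate 2) with 0 to 1 member, 25063 to 29795 between classes with 24 to 30 members, and 7971 to 9967 between kinds of barcode with 6 to 9 members. The cause was not tested.

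The difference in mean CPM between genotypes over all kept barcodes turned sign at 500 genes per barcode for Psat1 (-20.5), Shmt2 (-0.648) and Mthfd2 (1.29), and with mitochondrial transcripts kept for Slc7a5 (-0.0147). Leaving out each mouse turned it for Asns (-1.36 to 0.604), Psat1 (-2.63 to 8.25), Shmt2 (-0.338 to 0.746), Mthfd2 (-0.64 to 0.306), Slc7a5 (-5.87 to 4.67) and Slc7a11 (-9.45 to 28.3). Deviations of same-numbered mice had correlations of -0.142, 0.0647, -0.039 and 0.0303 for replicates 1 to 4 over all kept barcodes, and of -0.729, 0.309, 0.505 and 0.211 in nucleus-like barcodes. Since not every pair exceeded 0.1 in either set, the numbers were taken as names and not as pairs. Shmt2, Mthfd2, Asns and Ddit4 passed the low-count filter in no class, so depth limits their tests there.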
